A study of Mus musculus with 2 samples.

Results

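The secreted WNT inhibitors examined here were 9 genes, Sfrp1, Sfrp2, Sfrp4, Sfrp5, Frzb, Wif1, Dkk1, Dkk2 and Dkk3, taken by name out of the 19550 genes counted. Their transcripts were followed in 7808 single cells of the wild-type C57BL/6 mouse esophagus, gastro-esophageal squamocolumnar junction (GE-SCJ, where the squamous epithelium of the esophagus meets the columnar epithelium of the stomach) and stomach. Tissue was collected at embryonic day 15 (E15) and 19 (E19), from pups at day 2 after birth and from adults at week 8, and no treatment or mutation was applied. Mice of a region and stage were pooled under 1 oligonucleotide tag, so each of the 11 region and stage groups was 1 sample without replicate, and no adult stomach cells were analysed here. The levels below therefore carry an interval for counting error only and no test between groups.

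WNT ligands bind Frizzled receptors and the co-receptors LRP5 and LRP6, and this stabilises beta-catenin in the receiving cell. The secreted Frizzled-related proteins (SFRP1, SFRP2, SFRP4, SFRP5 and FRZB) carry a Frizzled-like cysteine-rich domain and bind WNT ligands outside the cell, as WIF1 does through its own WIF domain. DKK1 and DKK2 act at the receptor instead: they bind LRP5 and LRP6, with Kremen proteins as partners, and DKK3 is the divergent member of the Dickkopf family whose action on WNT signalling is less settled. In the gut wall such inhibitors are mostly products of the mesenchyme, the fibroblasts and muscle cells that lie under the epithelium.

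The 11 groups held 143 to 1403 cells and 2302227 to 20070615 unique molecular identifiers (UMIs, counted transcripts), and every cell barcode was unique. Levels are in CPM, the number of a gene's UMIs in each 1000000 UMIs pooled from all cells that share a label, region and stage. The fibroblast label held 3442 cells and the smooth muscle label 1027, and 6 markers fixed for each type summed to 20419 CPM in the fibroblast label and to 36904 CPM in the smooth muscle label. By its strongest marker list 96.7% of the fibroblast label and 89.3% of the smooth muscle label carried the labelled type, against 11.5% of the second stromal label of 139 cells, where markers of mesothelium summed to 2809 CPM and those of fibroblasts to 7656 CPM. Median depth in fibroblasts was 9025 to 10573 UMIs a cell before birth, 3859 to 5073 in pups and 4906 and 6470 in adults. Shares of cells with a UMI are therefore given after thinning cells to 3000 UMIs. Cells under 3000 UMIs were left out of these shares. They were 43 of 151 pup esophageal fibroblasts, 1 of 78 in the pup stomach and 60 of 354 immune cells, so thinned pup shares rest on unlike parts of the groups. Fewer cells of a kind within the fibroblast label and less RNA per cell cannot be told apart from a summed level. Some cells lay among cells of the other side of birth in expression space (259 cells, 42 of them adult), and values without them are given where they move a printed level or ratio of pup or adult stroma (groups of at least 20 cells) by over 1.5 times.

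The members gave 30814 UMIs, of which Sfrp1 gave 62.0%, Sfrp2 20.3%, Dkk3 10.6% and Dkk2 5.09%. Sfrp4 gave 340 UMIs, Sfrp5 114, Frzb 105, Dkk1 48 and Wif1 19, so these 5 genes could be followed in a few groups only. Fibroblasts held most of the UMIs of 7 members: 97.9% of Dkk1, 81.5% of Sfrp4, 79.7% of Sfrp1, 74.1% of Dkk2, 72.3% of Dkk3, 61.6% of Sfrp2 and 61.0% of the few of Frzb. The exceptions were Sfrp5, with 65.8% of its UMIs in the neural label, and Wif1, with 47.4% in smooth muscle. Smooth muscle held 32.4% of the Sfrp2 UMIs. These shares also follow label size, since fibroblasts gave 32454976 and smooth muscle 10850693 of the 107865155 UMIs of all genes. By CPM over all regions and stages the highest label was smooth muscle for Sfrp2 and neural for Frzb. Summed over the members, fibroblasts gave 468.8, 494 and 1206 CPM in the E15, E19 and pup esophagus, 589, 663 and 1887 CPM in the GE-SCJ, and 1049, 791 and 1608 CPM in the stomach.

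**Figure D1:**
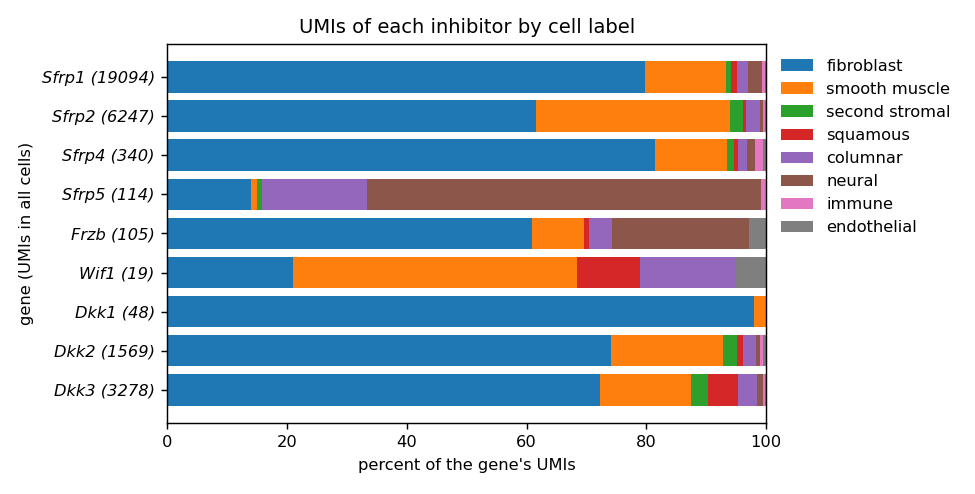
Share of each member's UMIs (percent, x axis) found in each cell label (colours, deposited squamous labels joined), 1 bar a gene with its total of UMIs. Fibroblasts fill most of the bars of Dkk1, Sfrp4 and Sfrp1, smooth muscle takes 32.4% of Sfrp2, and the neural label takes 65.8% of Sfrp5. The shares also follow the size of each label, and by CPM Sfrp2 was highest in smooth muscle.

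Sfrp1 (chromosome 8, 23411502 to 23449632, plus strand, GRCm38) was the most widely found ligand-binding member. At E15 its level in fibroblasts was 219.7 CPM (95% Poisson interval 205 to 235) in the esophagus, 324 (306 to 343) in the GE-SCJ and 718 (691 to 745) in the stomach. At E19 the levels were 351 (338 to 366), 385 (369 to 401) and 554 (536 to 572) CPM, and in pups 1081 (1002 to 1166), 1692 (1566 to 1825) and 1467 (1357 to 1584) CPM. The esophagus was lowest at each of these stages and the stomach highest before birth, with no interval shared, while in pups the GE-SCJ and the stomach overlapped. The stomach to esophagus difference was 3.26-fold at E15 (log2 ratio of esophagus over stomach -1.71, interval -1.82 to -1.59) and smaller at E19 (-0.66, -0.73 to -0.58) and in pups (-0.44, -0.60 to -0.28). The 31 adult esophageal fibroblasts gave 328 CPM (246 to 429), below the pup level, and 15 adult GE-SCJ fibroblasts gave 58 UMIs.

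The share of fibroblasts with an Sfrp1 UMI followed the same order. After thinning, 41.0% of E15 cells in the esophagus and 75.9% in the stomach had one, and 85.2% and 87.0% of pup cells. Without thinning the values were 70.0% and 94.4% at E15, and 90.7% in the pup esophagus. Immune cells of all regions and stages, which should lack the gene, gave 6.12% after thinning at a median depth of 8266.5 UMIs. Their mean level was 24.2 CPM, taken here as background, and the source of these UMIs was not tested.

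Sfrp2 (chromosome 3, 83766321 to 83774316, plus strand) had the opposite course over time. An antisense gene overlaps its 3′ end, and whether the counting used strand is not given in the sources used here. At E15 fibroblasts gave 161 CPM (149 to 175) in the esophagus, 184 (170.2 to 198) in the GE-SCJ and 218 (204 to 234) in the stomach. At E19 the values were 26.7 (23.0 to 30.8), 138 (129 to 148) and 97.7 (90.3 to 106), and in pups 7.96 (2.59 to 18.6), 45.7 (27.1 to 72.3) and 24.6 (12.3 to 44.1). The pup level lay below the E15 level in each region, by 16.9-fold in the esophagus (log2 ratio -4.08, interval -5.53 to -2.95), with -1.93 (-2.67 to -1.28) in the GE-SCJ and -3.02 (-3.98 to -2.21) in the stomach. Of the 11 pup stomach UMIs, 6 lay in 15 cells with prenatal neighbours, and without them the level was 14.3 CPM and the log2 ratio -3.67 (-5.12 to -2.54). The esophagus differed little from the stomach at E15 (log2 ratio -0.44, -0.59 to -0.28) and was 3.65-fold lower at E19 (-1.87, -2.11 to -1.63). In the pup esophagus 2.78% of 108 thinned fibroblasts had an Sfrp2 UMI, against 5.56% of 72 thinned pup immune cells. Such small shares cannot be ordered, and the fibroblast share is not told apart from background. Of the pup immune cells, 18 of 39 in the esophagus, 15 of 30 in the GE-SCJ and 3 of 17 in the stomach had mostly prenatal neighbours.

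Sfrp2 was also carried by few cells. In E15 esophageal fibroblasts the 10% of cells with the most Sfrp2 held 84.1% of its UMIs, with up to 66 UMIs in a cell, against 43.1% for Sfrp1 and 40.5% for Dkk3. The top 10% held 60.5% in the GE-SCJ and 68.7% in the stomach. Thinned shares of cells with a UMI were 15.04%, 29.4% and 27.2% in the E15 esophagus, GE-SCJ and stomach, with 29.1%, 51.1% and 46.9% unthinned, and 3.401% in all immune cells.

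Sfrp4 (chromosome 13, 19623104 to 19632994, plus strand), a further Frizzled-related protein, was rare outside 2 settings. In prenatal fibroblasts the E19 stomach was highest, with 126 UMIs or 19.1 CPM (15.9 to 22.7), followed by the E19 GE-SCJ with 9.09 (6.79 to 11.9) and the E15 stomach with 8.12 (5.52 to 11.5), whose intervals overlap. The E15 esophagus gave 3 UMIs (0.787 CPM), the E15 GE-SCJ 1 UMI and the E19 esophagus 3.73 CPM (2.43 to 5.46). At E19 the esophagus was thus 4.97-fold below the stomach (log2 ratio -2.31, -2.97 to -1.70), or -3.20 with the mean of each cell's CPM, which put the Sfrp4 level of the stomach at 32.9. Without the 1% of cells with most Sfrp4, the E19 levels were 1.89, 4.61 and 11.4 CPM in the esophagus, GE-SCJ and stomach, and too few UMIs were left for a call. In pups the counts were 0, 3 and 5 UMIs in the esophagus, GE-SCJ and stomach.

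**Figure D2:**
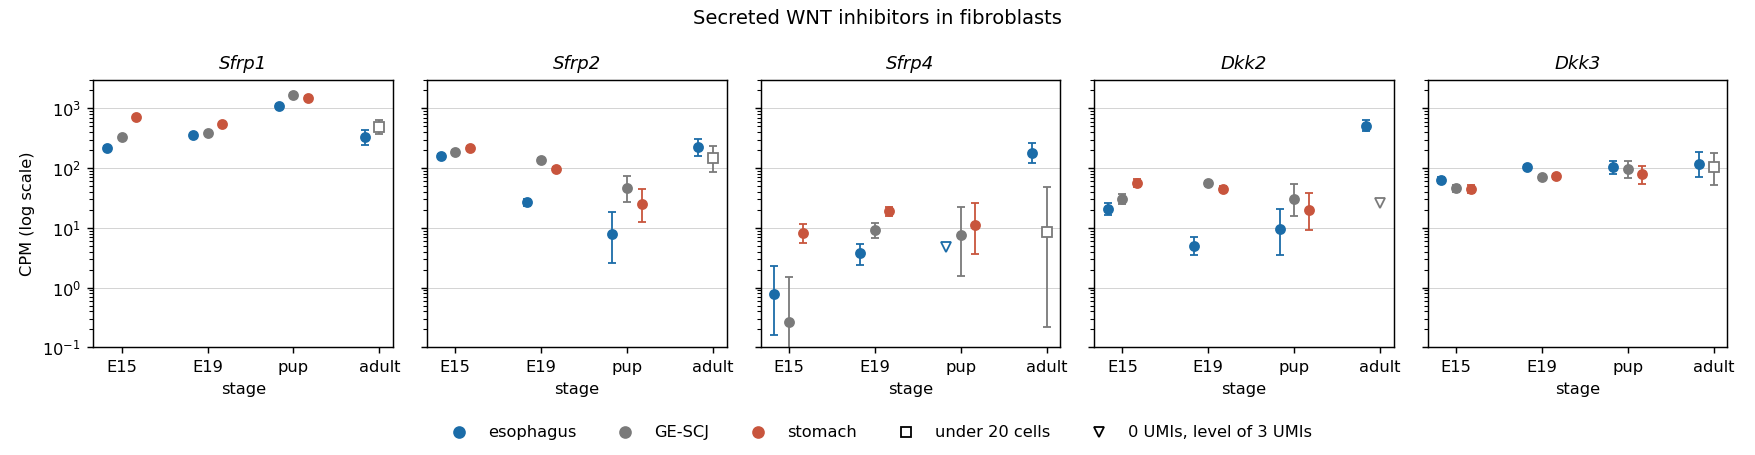
Level of the members in fibroblasts (CPM, log axis) by stage, 1 colour a region; bars are 95% Poisson intervals for counting error, open squares are groups under 20 cells and open triangles groups with 0 UMIs, drawn at the level of 3 UMIs. Sfrp1 is highest in pups in all 3 regions, Sfrp2 is lowest in pups, and Dkk2 reaches 513.7 CPM in the adult esophagus only.

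Dkk2 is the LRP-binding member with the most UMIs (1569, against 48 of Dkk1). Its upstream sequence is shown with that of Sfrp2 because the same fibroblast cluster held most UMIs of both before birth, all regions together. In the E19 esophagus alone, that cluster held 25.7% of the Dkk2 and 1.61% of the Sfrp2 UMIs of fibroblasts. The 250 bases before each RefSeq transcript start (GRCm38.p6, plus strand, chr3:132085042-132085291 for Dkk2 and chr3:83766071-83766320 for Sfrp2) are printed 5′ to 3′, with the letters TATAAA in capitals where they occur.
Dkk2: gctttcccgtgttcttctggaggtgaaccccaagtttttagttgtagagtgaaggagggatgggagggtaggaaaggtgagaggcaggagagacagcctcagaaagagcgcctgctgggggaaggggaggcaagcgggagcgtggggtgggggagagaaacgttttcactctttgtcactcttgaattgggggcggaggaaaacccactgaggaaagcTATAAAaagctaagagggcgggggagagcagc
Sfrp2: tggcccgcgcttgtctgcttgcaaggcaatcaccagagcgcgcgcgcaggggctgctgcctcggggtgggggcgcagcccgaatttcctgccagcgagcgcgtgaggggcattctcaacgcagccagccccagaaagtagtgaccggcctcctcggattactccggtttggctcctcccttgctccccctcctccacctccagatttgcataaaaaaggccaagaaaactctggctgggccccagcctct
The window of Dkk2 held TATAAA, with its first base 32 bases before the start, and that of Sfrp2 did not. Both strands of 300-base windows (250 before and 50 after the start) were searched, and TATAAA was in 13.6% of 32851 promoters and in Dkk1, Dkk2 and Wif1 among the 6 members matched (Sfrp1, Sfrp4 and Dkk3 had no entry). The TCF/LEF-like letters CTTTGTT were in 5.85% of windows and in that of Dkk1, and CTTTGAT in 3.73% and in no matched member. The window of Sfrp2 was 66.0% G or C with 22 CG pairs, and that of Dkk2 57.7% with 11.

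Dkk2 (chromosome 3, 132085292 to 132180304, plus strand) gave in E15 fibroblasts 20.5 CPM (16.2 to 25.6) in the esophagus, 30.2 (24.9 to 36.3) in the GE-SCJ and 56.3 (49.0 to 64.4) in the stomach. At E19 the esophagus was at 5.01 CPM (3.49 to 6.97), the GE-SCJ at 55.2 (49.3 to 61.7) and the stomach at 44.6 (39.7 to 50.01). The esophagus was below the stomach at both stages, by 2.73-fold at E15 (log2 ratio -1.45, -1.84 to -1.07) and 8.68-fold at E19 (-3.12, -3.66 to -2.62), while the esophageal and GE-SCJ intervals overlapped at E15 and not at E19. The E15 and E19 order of GE-SCJ and stomach was not the same, although at E19 their intervals just overlap. In pups the counts were 6, 12 and 9 UMIs, or 9.56, 30.5 and 20.2 CPM, with overlapping intervals.

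A single cell carried 24 of the 78 Dkk2 UMIs of the E15 esophagus, and without the 1% of cells with most Dkk2 the level was 8.54 CPM and the log2 ratio to the stomach, treated alike, -2.42. The thinned share of Dkk2-positive fibroblasts was 2.95% in the esophagus, 8.93% in the GE-SCJ and 14.7% in the stomach at E15, and 1.67%, 9.88% and 9.57% at E19. Immune cells gave 0 of 294 cells after thinning, an interval reaching 1.25%, and 2.13 CPM.

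Among fibroblast groups the adult esophagus had the highest Dkk2 level. Its 31 fibroblasts gave 83 UMIs, or 513.7 CPM (409 to 637), 25.1-fold above E15 (log2 ratio 4.65, 4.19 to 5.11), and 50% of its 26 thinned cells (29.9 to 70.1) had a UMI. The 3 cells with the most, 18, 15 and 11 UMIs, held 53.0% of them, and without these 3 cells the level was 271 CPM and the log2 ratio over E15 3.75, an alternative added after the values were seen. Among the 15 adult GE-SCJ fibroblasts none had a Dkk2 UMI, where 3 UMIs would have been 25.6 CPM. With under 20 cells, and Dkk2 UMIs concentrated in few cells, no fold difference is read from this group. Of those 15 cells, 8 had mostly prenatal cells as neighbours, against 2 of 31 in the adult esophagus, where the other 29 gave 569 CPM. Without such cells, 7 GE-SCJ cells were left with 0 UMIs, where 3 UMIs would have been 101 CPM. The part of cells with prenatal neighbours in these adult values was not tested.

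Sfrp4 and Sfrp2 were also found in those adult esophageal fibroblasts. Sfrp4 gave 29 UMIs, or 179.5 CPM (120.2 to 258), against 0.787 CPM at E15 (log2 ratio 7.47, 5.96 to 9.43, over 32 UMIs), and 3 cells with 9, 8 and 5 UMIs held 75.9% of them. Without these 3 cells the level was 51.8 CPM, and 8 of the 29 UMIs lay in the 2 cells with prenatal neighbours. Sfrp2 gave 36 UMIs in 7 cells, or 223 CPM (156 to 308), and 73.4 CPM without its top 3 cells. Without thinning, 15 of the 31 cells carried Dkk2, 9 carried Sfrp4 and 7 carried Sfrp2. Of the 31 cells, 7 carried both Dkk2 and Sfrp4, 7 carried both Dkk2 and Sfrp2, and 0 carried both Sfrp2 and Sfrp4. No preference or exclusion is read from so few cells. In the adult GE-SCJ the 17 Sfrp2 UMIs all lay in the 8 cells with prenatal neighbours.

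Dkk3 (chromosome 7, 112116017 to 112159057, minus strand) had a regional order unlike that of the other members. At E15 fibroblasts gave 63.5 CPM (55.8 to 72.0) in the esophagus, 45.6 (39.1 to 53.0) in the GE-SCJ and 44.5 (38.1 to 51.7) in the stomach. At E19 the values were 105.5 (97.97 to 113), 70.3 (63.6 to 77.5) and 72.5 (66.1 to 79.2), and in pups 103.5 (79.9 to 132), 96.5 (68.3 to 133) and 78.4 (54.6 to 109). Before birth the esophagus lay above both other regions, which overlapped each other, and in pups all 3 overlapped. The difference from the stomach was less than 2-fold at each stage, with log2 ratios of 0.51 (0.22 to 0.80), 0.54 (0.37 to 0.71) and 0.38 (-0.22 to 1.01). After thinning, 17.4% of E15 esophageal and 8.78% of E15 stomach fibroblasts had a Dkk3 UMI, against 1.36% of immune cells.

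Dkk1, the best known LRP antagonist of the family (chromosome 19, 30545863 to 30549665, minus strand), had 47 of its 48 UMIs in fibroblasts. They came from the E15 and E19 GE-SCJ (13 and 10 UMIs, 3.45 and 1.75 CPM) and stomach (7 and 17 UMIs, 1.83 and 2.57 CPM). The esophagus had 0 at every stage, where 3 UMIs would have been 0.787 CPM at E15 and 0.430 CPM at E19. With 3 UMIs in place of 0 the GE-SCJ was 4.38-fold above the esophagus at E15 and 4.07-fold at E19. These folds leave out the counting error of the 13 and 10 GE-SCJ UMIs and are not lower limits.

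Of the 9 members, 4 had the 100 UMIs over both groups that were required to call a difference of at least 2-fold between esophageal and stomach fibroblasts at E15, 5 at E19 and 2 in pups. At E15 Sfrp1 and Dkk2 were called lower in the esophagus, where 2.45% of 8450 genes were, and 0 members were called higher, where 2.59% were. At E19 Sfrp2, Sfrp4 and Dkk2 were called lower against 4.11% of 10009 genes, and 0 higher against 3.05%. In pups neither of the 2 members was called, against 2.08% of 1830 genes lower and 3.33% higher. The median log2 ratio was -0.94 over the 4 members at E15, -1.87 over the 5 at E19 and -0.03 over the 2 in pups, and -0.11, -0.14 and -0.04 over all genes tested. The members below the count minimum were Sfrp5, Frzb, Wif1 and Dkk1 at each stage, with Sfrp4 at E15 and Sfrp2, Sfrp4 and Dkk2 in pups.

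**Figure D3:**
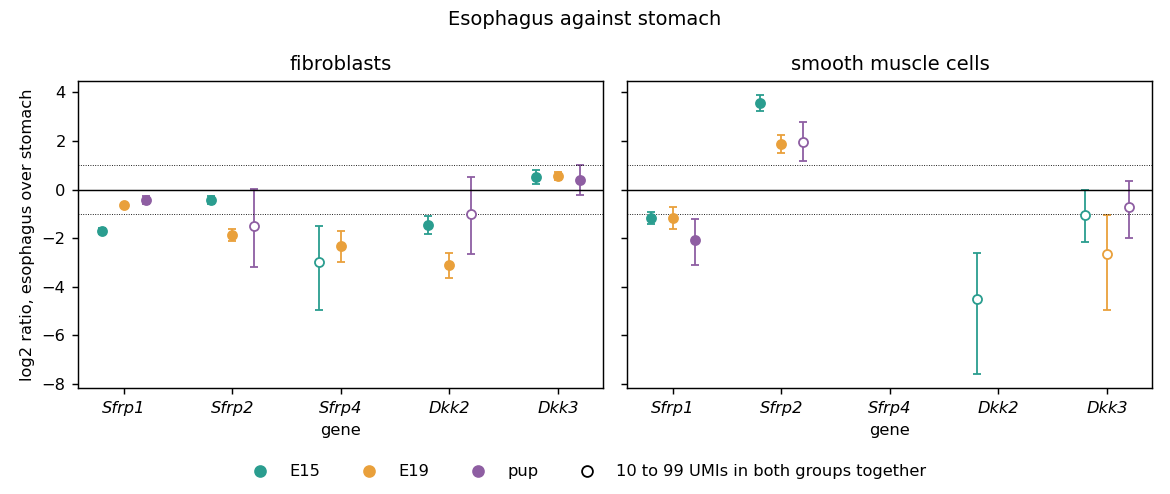
Log2 ratio of esophagus over stomach (y axis) for each member in fibroblasts and in smooth muscle at E15, E19 and pup, with exact 95% intervals for counting error; filled points have at least 100 UMIs over both regions and open points 10 to 99, ratios with 0 UMIs on a side are left out, and dotted lines mark 2-fold. Sfrp1 and Dkk2 lie below 0 in fibroblasts and Dkk3 above it before birth, while Sfrp2 in smooth muscle lies far above 0 at E15 (3.55).

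The 3 markers of the interstitial cell of Cajal (Kit, Ano1 and Etv1) moved with the region inside the fibroblast label. They summed to 94 CPM at E15, 61 at E19 and 135 in pups in the esophagus, to 155, 227 and 218 CPM in the GE-SCJ, and to 325, 299.9 and 361 CPM in the stomach. Their part in the regional levels of Dkk2, Sfrp2 and Sfrp1 was not tested.

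Between E15 and pup, Sfrp1 was the member higher in each region, with log2 ratios of 2.30 (2.15 to 2.45) or 4.92-fold in the esophagus, 2.38 in the GE-SCJ and 1.03 (0.91 to 1.16) in the stomach. In the esophagus 1 of 3 tested members was called higher (Sfrp1), against 8.84% of 6361 genes, and 1 lower (Sfrp2), against 12.0%. In the GE-SCJ Sfrp1 and Dkk3 of 4 were called higher against 7.89% of 6259 genes, and Sfrp2 lower against 12.8%. In the stomach Sfrp1 of 4 was called higher against 6.88% of 6539 genes, and Sfrp2 and Dkk2 lower against 10.5%. Of these calls, that of Sfrp1 in the stomach (1.03) was 0.98 with library sizes free of mitochondrial, ribosomal and hemoglobin genes and 0.99 with the mean of each cell's CPM, that of Dkk2 was -0.88 with 5 UMIs added, and that of Dkk3 in the GE-SCJ was 0.90 to 0.98 under 3 alternatives. The median log2 ratio of all genes tested was -0.12, -0.13 and -0.14 in the esophagus, GE-SCJ and stomach. Dkk3 had positive ratios in all 3 regions, 0.72 (0.31 to 1.12), 1.11 (0.57 to 1.62) and 0.85 (0.29 to 1.37). For Dkk2 the stomach gave -1.34 (-2.42 to -0.43) and the GE-SCJ 0.11 (-0.84 to 0.95). In the adult esophagus Dkk2 of 4 tested members was called higher than at E15, against 11.7% of 5927 genes, and 0 were called lower, against 16.0%. Without the 1% of cells with most Dkk2 in each group its log2 ratio was 5.61, but under 100 UMIs were left and the call was lost. Sfrp1 (0.60, 0.18 to 1.00), Sfrp2 (0.50, -0.02 to 0.98) and Dkk3 (0.96, 0.22 to 1.62) were under 2-fold there. With the mean of each cell's CPM, Sfrp2 was at 1.12 and Dkk3 at 1.20, and Dkk3 was at 1.04 with the median gene set to 0.

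In smooth muscle Sfrp2 was higher in the esophagus than in the stomach at E15, E19 and pup, and lower in fibroblasts at these stages, although in pups the fibroblast intervals overlapped. At E15 it was at 639 CPM (593 to 687) in the esophagus, 127 (111 to 145) in the GE-SCJ and 53.8 (43.2 to 66.3) in the stomach, and no intervals overlap. At E19 the esophagus and GE-SCJ overlapped at 231 (189.6 to 279.6) and 225 (207 to 245) CPM, above the stomach at 63.2 (52.5 to 75.4). In pups the values were 209 (134 to 312), 274 (233 to 320.4) and 53.7 (36.3 to 76.7) CPM. Esophageal muscle was 11.7-fold above stomach muscle at E15 (log2 ratio 3.55, 3.24 to 3.89), and the log2 ratio was 1.87 (1.49 to 2.26) at E19 and 1.97 (1.15 to 2.78) in pups. After thinning 70.7% of E15 esophageal muscle cells had an Sfrp2 UMI, against 10.8% in the stomach. In the adult the esophagus gave 7 UMIs, all in 1 of 30 cells, and the GE-SCJ 1 UMI in 16 cells.

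Sfrp1 at E15, E19 and pup, and Dkk2 before birth, were lower in esophageal than in stomach muscle, as in fibroblasts. Sfrp1 was at 161 (139 to 187), 186 (167 to 208) and 366 (337 to 396) CPM in the E15 esophagus, GE-SCJ and stomach, with log2 ratios of esophagus over stomach of -1.18, -1.15 and -2.09 at E15, E19 and pup. The pup esophagus held 22 muscle cells, 12 of them with mostly prenatal neighbours, and without such cells Sfrp1 was at 158 instead of 87.2 CPM and the pup ratio -1.34 (-2.49 to -0.39). The muscle label held deposited clusters of 779 and 248 cells. In the 55 pup cells of the larger cluster Sfrp1 was at 93.0 CPM and Sfrp2 at 112 CPM. In the 199 pup cells of the smaller cluster they were at 536 and 189 CPM. The part of these clusters in the pup ratios between regions was not tested. Dkk2 gave 1 UMI in 93 E15 esophageal muscle cells, and 42.7 (33.5 to 53.6) and 39.9 (30.9 to 50.8) CPM in the GE-SCJ and stomach. At E19 it gave 0 UMIs in 42 esophageal muscle cells, against 34.2 CPM (26.4 to 43.5) in the stomach. With 3 UMIs in place of 0 the difference was 5.27-fold, which leaves out the counting error of the stomach value. In adult muscle Dkk2 gave 2 UMIs in 30 esophageal cells. In the adult GE-SCJ it gave 7 UMIs in 13 muscle cells and 0 in the 3 with mostly prenatal neighbours, too few cells for an order.

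Dkk3 in muscle was higher after birth. In the GE-SCJ it was at 22.5 (16.0 to 30.8), 49.2 (40.8 to 58.9) and 191 (157 to 231) CPM at E15, E19 and pup, and in the stomach at 19.4 (13.2 to 27.3), 40.4 (31.9 to 50.4) and 113 (86.7 to 144) CPM. The log2 ratio of pup over E19 was 1.96 in the GE-SCJ and 1.49 in the stomach. Pericyte markers summed to 175 to 257 CPM in prenatal muscle groups and to 227 CPM in the pup esophagus. They summed to 934 CPM in the pup GE-SCJ, 2171 in the pup stomach and 4020 in the adult esophagus. Within the label, Dkk3 was at 33.5 CPM in the cluster of 779 cells. It was at 141 CPM in the cluster of 248 cells led by Igfbp3, Agt, Apoe and the pericyte gene Rgs5, of which 199 cells were from pups. In the cluster of 779 cells it was at 17.2, 40.0 and 93.0 CPM (62.7 to 133 in pups) at E15, E19 and pup. The part of the Rgs5 cluster in the stage difference was not tested. Markers of skeletal muscle summed to 344 and 489 CPM in the E19 and pup esophageal muscle groups, and Dkk3 in the pup esophagus was at 61.1 CPM, or 119 CPM without the cells with prenatal neighbours.

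**Figure D4:**
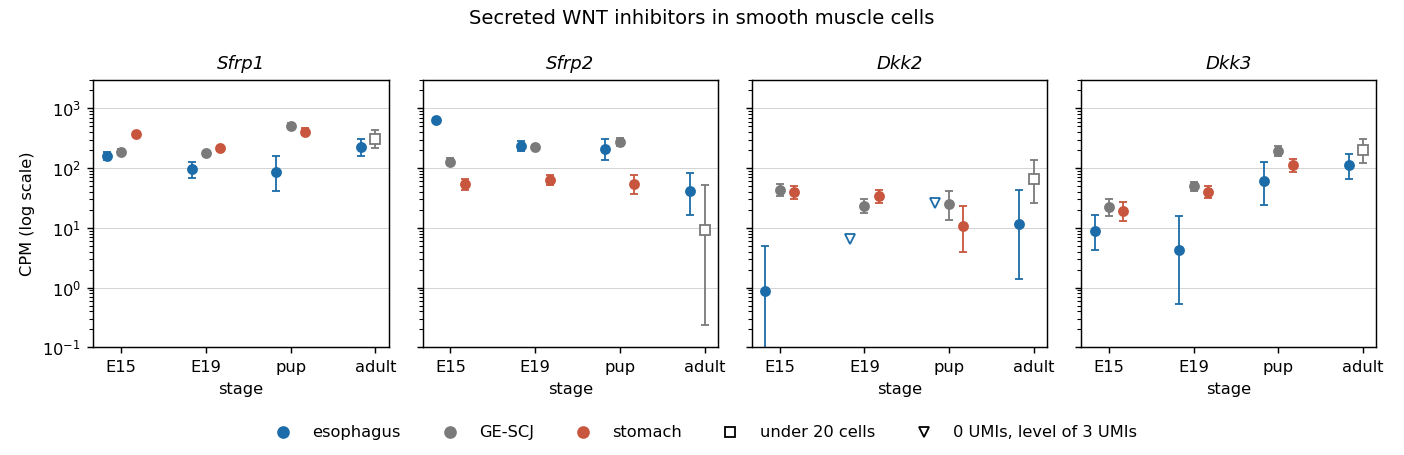
Level of the members in smooth muscle cells (CPM, log axis) by stage and region, drawn as in the fibroblast plot. The esophagus is highest for Sfrp2 at E15 (639 CPM) and lowest for Dkk2 before birth, and Dkk3 is higher in pups than before birth. For Sfrp1 the esophagus is lowest at E15, E19 and pup, although its E15 interval overlaps that of the GE-SCJ. In the pup esophagus 0 Dkk2 UMIs are drawn at 26.2 CPM, and no order is read there.

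Set side by side at E19, fibroblasts had more Sfrp1 than smooth muscle in all 3 regions, with log2 ratios of 1.85 (1.43 to 2.31) in the esophagus, 1.11 in the GE-SCJ and 1.36 in the stomach. The median of all genes tested was 0.04, 0.21 and 0.26, and set to 0 it left Sfrp1 at 0.91 in the GE-SCJ, under the 2-fold call, and at 1.10 in the stomach. Sfrp2 went the other way in the esophagus, 8.72-fold lower in fibroblasts (-3.12, -3.47 to -2.77), with -0.71 in the GE-SCJ and 0.62 in the stomach. In the esophagus Sfrp1 and Dkk3 of 3 tested members were called higher in fibroblasts, against 14.1% of 7989 genes, and Sfrp2 lower, against 8.09%. In the GE-SCJ Sfrp1 and Dkk2 of 4 were called higher, against 10.1% of 8561 genes, and 0 lower, against 4.64%. In the stomach Sfrp1 of 5 was called higher, against 13.5% of 8725 genes, and 0 lower, against 4.96%. Dkk3 in esophageal muscle rested on 2 UMIs at this stage.

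The deposited clusters divided the fibroblasts into 4, largely by region and stage, and the members were unevenly spread over them. Since the clusters were built from the cells' own expression, these levels are a description. Cluster 0 (1409 cells, led by Fam162b and Bmp5) was mostly prenatal GE-SCJ and stomach, cluster 1 (891 cells, led by Sostdc1 and Tbx18) had 882 cells of the esophagus, cluster 3 (812 cells, led by Stmn2, Kit and Crabp1) was mainly prenatal and came from all 3 regions, and cluster 9 (330 cells, led by Igfbp6 and Ecm2) was mainly postnatal. Cluster 3 held 73.7% of the Dkk2 UMIs of fibroblasts, 68.4% of Sfrp2 and 61.7% of Sfrp4 (although the Sfrp4 level in cluster 9, 22.1 CPM, overlapped the 23.3 CPM of cluster 3), but 32.7% of Sfrp1 and 9.0% of Dkk3. Of the 35 Sfrp4 UMIs of cluster 9, 30 came from its 36 adult cells and 5 from its 282 pup cells (3.90 CPM). Dkk2 itself was among the 10 leading genes of cluster 3. Sfrp1 was highest in cluster 9, at 1307 CPM against 677.5 in cluster 3, 379.6 in cluster 0 and 295 in cluster 1. Dkk3 was lowest in cluster 3, at 29.0 CPM against 103 in cluster 1, and the Dkk1 UMIs of fibroblasts were all in cluster 0.

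**Figure D5:**
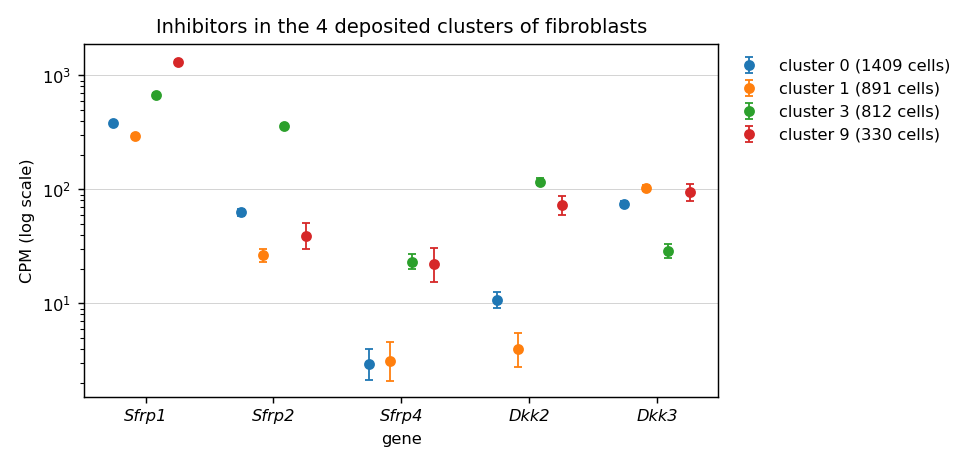
Level of 5 members (CPM, log axis) in the 4 deposited fibroblast clusters, with 95% Poisson intervals. Dkk2, Sfrp2 and Sfrp4 are high in cluster 3 (117, 358 and 23.3 CPM), where Dkk3 is lowest. Sfrp1 is highest in cluster 9 (1307 CPM). Sfrp4 in cluster 9 is at 22.1 CPM, with 30 of its 35 UMIs from 36 adult cells.

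Levels within cluster 3 differed by region, and whether the cluster held the same kinds of cell in each region was not tested. Dkk2 was at 48.5 CPM (37.9 to 61.2) in 136 E15 cells of the esophagus. In 50 E19 cells of the esophagus it was at 26.6 CPM (12.2 to 50.5), from 9 UMIs. At E15 and E19 it was at 106 and 146 CPM in the GE-SCJ and at 139.7 and 160.3 CPM in the stomach. Sfrp1 was at 350.4 and 313 CPM in the esophagus, 525 and 553 in the GE-SCJ and 1025 and 995 in the stomach. Sfrp2 was at 381, 513 and 472 CPM in the E15 esophagus, GE-SCJ and stomach, and at E19 the esophagus had 3 UMIs (8.87 CPM) against 288 and 296 CPM. Of the Sfrp2 UMIs of E19 esophageal fibroblasts, 97.8% were in cluster 1, at 28.0 CPM. Cluster 1 held 678 of these 739 fibroblasts, with 93.8% of their Sfrp1 and 74.3% of their Dkk2 UMIs. Such shares also follow the size of the cluster.

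Fibroblasts without any member UMI were most frequent in the early esophagus. After thinning, 40.7% of E15, 28.5% of E19 and 13.0% of pup esophageal fibroblasts had none, against 16.7%, 17.5% and 9.09% in the stomach. A UMI of 2 or more members was found in 16.8% of E15 esophageal and 40.2% of E15 stomach fibroblasts. In the GE-SCJ at E15 Sfrp2 was found in 61.3% of the 31 Dkk2-positive cells and in 26.3% of the rest, and in the E15 stomach in 40.4% and 24.9%. In the E19 stomach 10 cells had both Sfrp4 and Dkk2, where the product of their shares gives 3.06, and 0 had both Sfrp4 and Dkk3, where it gives 5.89. In the E19 GE-SCJ the same pairs lay at the product, with 1 cell against 1.09 and 2 cells against 1.89.

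Sfrp5, which is close to SFRP1 in sequence, was found mainly in the neural label, a mix of enteric neuron and glia markers (1881 CPM) with fibroblast markers at 1508 CPM. It gave 28 UMIs (33.7 CPM, 22.4 to 48.7) in the E15 esophagus and 17 UMIs (26.5, 15.4 to 42.4) in the E19 GE-SCJ, with 6 and 2 UMIs in the E15 and E19 stomach. Pups gave 7 UMIs in the esophagus, 8 in the GE-SCJ and 1 in the stomach. The E15 esophagus and E15 stomach intervals (2.34 to 13.9 CPM) did not overlap. In fibroblasts Sfrp5 gave 16 UMIs, 6 of them in 1 adult esophageal cell. Frzb, the Frizzled-related protein first known from cartilage, gave 12 of its 105 UMIs in 7 of 20 pup stomach neural cells (120.3 CPM, 62.2 to 210.2). In prenatal fibroblasts it lay between 1.21 and 2.89 CPM with overlapping intervals. The 19 Wif1 UMIs lay in 16 cells, too few for an order of regions or stages.

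The other WNT pathway genes were taken from a list of 60 ligands, receptors, R-spondins, targets and inhibitors, of which 52 were in the file. Their counts stand beside the shares of all genes called in the same comparison. Of 20 tested between esophageal and stomach fibroblasts at E15, 2 were higher in the esophagus (Sostdc1 and Tpbg), where 2.59% of all genes were, and 0 lower (2.45%). Of 29 at E19, 4 were higher (Wnt2, Nkd1, Sostdc1 and Tpbg, 3.05%) and 2 lower (Wnt4 and Rspo3, 4.11%), and of 6 in pups 1 was higher (Tpbg, 3.33%) and 0 lower (2.08%). Tpbg, a membrane protein that inhibits WNT signalling, met the rule of 2-fold in 1 direction at all 3 stages, with 68.8 against 24.4 CPM at E15 (log2 ratio 1.49, 1.14 to 1.84), 83.7 against 26.3 CPM at E19 (1.66, 1.42 to 1.92) and 228 against 107 CPM in pups (1.06, 0.59 to 1.56). Sostdc1, a secreted antagonist of WNT and BMP signalling, and the remaining names were read off after their values were seen. Between E15 and pup, 4 of 16 were higher and 3 lower in the esophagus (8.84% and 12.0% of all genes), 2 and 1 of 15 in the GE-SCJ (7.89% and 12.8%) and 3 and 2 of 15 in the stomach (6.88% and 10.5%), with 0 higher and 6 lower of 15 in the adult esophagus (11.7% and 16.0%). Against smooth muscle at E19, 7 of 22, 7 of 21 and 7 of 23 were higher in fibroblasts of the esophagus, GE-SCJ and stomach (14.1%, 10.1% and 13.5% of all genes), and 2, 3 and 3 were lower (8.09%, 4.64% and 4.96%).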

How the data were processed

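Single cells were profiled with a droplet 3′ kit and sample tags, and the authors aligned reads to mm10 and counted UMIs with Cell Ranger 6.1.1, per the methods and labels. The deposited matrix holds raw counts, and the deposited cell table holds the label, cluster, region, stage and mitochondrial percent of each cell as the authors set them. The authors left out barcodes by gene, UMI and mitochondrial limits, partly to remove doublets, and no further doublet caller was run. The 9 deposited labels were used as 8 classes, with the squamous labels joined and the fibroblast, smooth muscle and second stromal labels apart.

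UMIs were summed by label, region and stage and given as CPM with exact Poisson intervals at 95%. Shares of cells have Clopper-Pearson intervals. Log2 ratios add 1 UMI to each sum and have an exact interval conditional on the summed counts. A difference was called at 2-fold or more where both groups together had 100 or more UMIs of the gene, and a sum of 0 was bounded with 3 UMIs. Intervals cover counting error only. The labels count 6, 2, 2 and 3 mice at E15, E19, pup and adult, pooled within a group, while the methods describe another number, so the mice behind a group are uncertain and no test was made. Shares and sums of UMIs over genes describe the counts, not which gene is more abundant, since a 3′ count depends on each transcript's end.

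The named genes were the 9 members, the pathway genes past 2-fold in 1 direction at E15, E19 and pup with at least 100 UMIs at each, and for members with at least 500 UMIs the 3 most alike genes. Members and lists were chosen with earlier results of these data known. Neighbours were the 15 nearest cells over 30 principal components of 2000 variable genes. Python 3.11.15, scanpy 1.11.5, scipy 1.17.1, numpy 2.4.6 and pandas 2.3.3 were used, and the scripts were tested on simulated data. Alternatives were a UMI minimum of 20 or none, folds of 1.5 and 3, 5 UMIs added, other library sizes, cell filters and leaving out cells. Ratios without cells with neighbours across birth, and Dkk2 without its top 3 adult cells, were added after the data were seen. Promoter sequences are from RefSeq (GRCm38.p6), and gene positions from the GRCm38 annotation.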

Additional observations from a re-analysis of the deposited data

Results flagged for a closer look

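For 2 member and cell type pairs the E19 over E15 difference went opposite ways in the esophagus and the GE-SCJ. Each group was 1 pooled sample, so the difference between regions was not tested. Dkk2 in fibroblasts had a log2 ratio of -2.01 (-2.62 to -1.42) in the esophagus and 0.86 (0.55 to 1.18) in the GE-SCJ, and -0.34 in the stomach. Cluster 3, which held most Dkk2 UMIs of fibroblasts, took 136 of 347 esophageal fibroblasts at E15 and 50 of 739 at E19. It took 94 of 350 and 204 of 588 in the GE-SCJ, and 145 of 360 and 169 of 701 in the stomach. Its part in the stage differences of Dkk2 and Sfrp2 in fibroblasts was not tested. Sfrp2 in smooth muscle had -1.45 (-1.76 to -1.16) in the esophagus and 0.82 (0.60 to 1.06) in the GE-SCJ, and 0.23 (-0.18 to 0.64) in the stomach.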

How the results depend on the processing

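Alternatives gave 343 recomputed log2 ratios and 260 counts of called members. Of the 38 log2 ratios as reported, 20 were called, and 0 of these changed sign. Sign changes were not looked for in uncalled ratios and have no meaning for counts. Some ratios fell outside their reported interval, up to 6 of 38 with the mean of each cell's CPM. Of the counts, 34 moved by more than 1.5 times and are given here, and 7 differed by 1.5 times or less. Asking for no UMI minimum gave 5 members lower in the esophagus than in the stomach at E15 (2 as reported), 1 higher at E19 (0), and 1 higher and 5 lower in pups (0 and 0). It gave 4 higher in the adult esophagus (1), 5 higher in the pup GE-SCJ (2), 3 higher in the pup stomach (1), and for fibroblasts over muscle 2 lower in the esophagus (1), 5 higher and 1 lower in the GE-SCJ (2 and 0) and 3 higher and 1 lower in the stomach (1 and 0). A fold of 1.5 gave 2 higher in the pup esophagus, 3 in the adult esophagus and 2 in the pup stomach (1 each), and for fibroblasts over muscle 1 lower in the GE-SCJ (0) and 4 higher in the stomach (1). A fold of 3 gave 1 lower in the esophagus at E15 (2), 1 higher in the pup GE-SCJ (2), 0 higher and 1 lower in the pup stomach (1 and 2), and 0 higher over muscle in the GE-SCJ (2) and stomach (1). In the adult esophagus the count higher than E15 was 3 with the mean of each cell's CPM (Dkk2, Sfrp2 and Dkk3), 2 with a minimum of 20 UMIs (Dkk2 and Sfrp4), 2 with the median gene set to 0 and 2 with 5 UMIs added (Dkk2 and Dkk3) and 0 without the 1% of cells with most UMIs of the gene, where fewer than 100 UMIs were left (1). In the pup GE-SCJ the count higher was 1 with the mean of each cell's CPM, without the 2% deepest cells and without cells with neighbours from the other side of birth (2). Setting the median to 0 gave 1 higher over muscle in the GE-SCJ (2). In the pup stomach 5 UMIs added gave 1 lower (2), and library sizes without mitochondrial, ribosomal and hemoglobin genes gave 0 higher (1). Of 700 CPM values, 43 moved by more than 1.5 times, 31 of them of Sfrp4 or Dkk2.

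No paired analysis was possible because the groups carry no replicate numbers, each region and stage being 1 pooled sample. The main limits are the missing replicates, so that the tag and the pool of mice cannot be told apart from the region and stage group they mark, and the few adult stromal cells (31 and 15 fibroblasts), which set the precision of every adult value. Sfrp5, Frzb, Dkk1 and Wif1 gave under 100 UMIs in every group, so few of their groups can be ordered. Pup and adult fibroblasts were shallower than prenatal ones.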

Other observations

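The second stromal label of 139 cells carried 107 CPM of Sfrp1, 97.6 of Sfrp2, 69.3 of Dkk3 and 28.3 of Dkk2. Outside the stroma Dkk3 was found in squamous epithelial cells of the esophagus, at 19.3 CPM at E15, 21.6 at E19, 69.9 in pups and 4.99 in adults, against 2.38 CPM in columnar cells and 3.99 CPM in immune cells. The squamous class joined the deposited squamous labels, and 86.7% of its 730 cells were squamous by their strongest marker list. In the neural label Dkk3 reached 126 CPM in the pup esophagus (13 UMIs). Sfrp1 in columnar cells was at 8.31 CPM, below the 24.2 CPM of immune cells.

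The genes whose levels followed a member most closely are given as Pearson's r of log2(CPM + 10) over 54 groups of label, region and stage, which share libraries and depth, so that r is a description. Sfrp1 was most like Col5a2 (0.93), Col5a1 (0.92) and Loxl2 (0.91), which encode matrix collagens and a collagen crosslinking enzyme. Sfrp2 was most like Gm26771 (0.93), Wscd2 (0.86) and Foxf2 (0.85), and Gm26771 lies on the minus strand (chr3:83773853-83789956) over the end of Sfrp2, so reads of the pair may be split between them and its likeness is uncertain. Dkk2 was most like Timp1 (0.76), Cxcl12 (0.75) and Cd248 (0.74), and Dkk3 like Antxr1 (0.88), Rarres2 (0.87) and Serping1 (0.86). Among members the closest pairs were Dkk2 and Sfrp4 (0.78), Sfrp1 and Dkk3 (0.73) and Dkk2 and Sfrp2 (0.64).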
